A study of Mus musculus with 18 samples.

Results

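The colon T cells described here carried transcripts of natural killer (NK) cell receptors. They were chosen by measured counts, as the cells of the colon gene expression matrix that had under 20% mitochondrial counts, at least 1 molecule of Cd3e (the epsilon chain of the T cell receptor complex), at least 1 molecule in the sum of Klra1, Klra7 and Klre1, and no molecule of the B cell gene Cd79a or the epithelial gene Epcam. This gate held 750 of 2998 colon T cells (25.0%), among 21286 colon cells under the mitochondrial limit and 60272 cells of all kinds deposited in the whole series. The other 2248 colon T cells, with no molecule of the 3 receptor genes, served as the main comparison. A second comparison used 116 NK-like cells, which had at least 1 molecule of Ncr1 (the NK receptor NKp46) and none of Cd3e, Cd3d and Cd3g.

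The mice were knockout (KO), heterozygous (het) or wildtype (WT) for St8sia6, a sialyltransferase that adds sialic acid to glycoproteins. On 3 occasions, cells of 1 KO mouse, 1 het mouse and 2 WT mice were prepared from the whole colon, lamina propria and epithelium together, enriched for CD45 and marked with a hashtag antibody for each genotype before they were pooled for capture. The cells of both WT mice of a run carried the same hashtag and cannot be told apart. Neither the animals' age or strain nor the deleted part of St8sia6 is given in the sources used here. Each barcode ending of the matrix took the genotype of its highest median hashtag count, which gave 9 sums of members, 3 libraries for each genotype. They held 83, 70 and 90 KO cells in libraries 1, 2 and 3, 57, 73 and 89 het cells, and 83, 137 and 68 WT cells.

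Ly49 proteins, encoded by the Klra genes, are lectin-like receptors that bind MHC class I and mostly inhibit the killing of cells that display it. Klrc1 and Klrd1 encode the subunits of the CD94-NKG2A receptor for the class Ib molecule Qa-1, Klrk1 encodes the activating receptor NKG2D, and Klre1 encodes a relative that pairs with the Klri proteins. In the gut, such receptors are known from intraepithelial T cells of the unconventional kind, which carry CD8 alpha without CD8 beta, have an activated and cytotoxic program, and include both alpha-beta and gamma-delta T cells.

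All 3 genes of the gate lie in the NK gene complex on mouse chromosome 6, with Klre1 at chr6:129559365-129585828, Klra7 at chr6:130218605-130233322 and Klra1 at chr6:130363918-130386874 (GRCm38.p6, protein-coding genes, RefSeq). RefSeq promoter windows of 300 bases, from 250 before to 50 after the start, were at hand for 18 of 20 listed Klra and Klr genes. The windows of the 3 gate genes and of Klra6, the Klra gene outside the gate with the largest called difference, are shown so that the regulatory sequence can be read beside the levels. Klra1 stands on the minus strand (chr6:130386825-130387124), as do Klra6 (chr6:130026905-130027204) and Klra7 (the first of 2 listed starts, chr6:130231638-130231937), and Klre1 on the plus strand (the first of 2 listed starts, chr6:129577963-129578262). Capitals mark the letters of a RUNX motif (TGTGGT, or ACCACA on the other strand) or of a TCF/LEF motif (CTTTGA, or TCAAAG).
Klra1: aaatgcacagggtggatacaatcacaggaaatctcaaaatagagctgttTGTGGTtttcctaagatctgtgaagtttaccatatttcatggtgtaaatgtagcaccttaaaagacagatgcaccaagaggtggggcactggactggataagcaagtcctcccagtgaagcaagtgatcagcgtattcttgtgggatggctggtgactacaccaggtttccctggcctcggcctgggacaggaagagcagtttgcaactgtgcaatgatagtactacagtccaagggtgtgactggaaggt
Klra6: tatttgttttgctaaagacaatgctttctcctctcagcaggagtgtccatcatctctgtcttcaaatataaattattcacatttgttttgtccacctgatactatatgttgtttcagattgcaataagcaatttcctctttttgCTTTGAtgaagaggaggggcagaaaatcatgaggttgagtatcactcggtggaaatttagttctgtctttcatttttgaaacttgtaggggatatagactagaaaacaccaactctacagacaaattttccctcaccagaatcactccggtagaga
Klra7: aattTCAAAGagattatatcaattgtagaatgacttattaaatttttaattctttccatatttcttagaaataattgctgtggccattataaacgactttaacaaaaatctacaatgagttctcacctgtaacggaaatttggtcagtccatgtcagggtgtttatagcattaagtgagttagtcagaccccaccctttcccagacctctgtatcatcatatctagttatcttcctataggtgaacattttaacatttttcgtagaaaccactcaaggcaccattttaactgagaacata
Klre1: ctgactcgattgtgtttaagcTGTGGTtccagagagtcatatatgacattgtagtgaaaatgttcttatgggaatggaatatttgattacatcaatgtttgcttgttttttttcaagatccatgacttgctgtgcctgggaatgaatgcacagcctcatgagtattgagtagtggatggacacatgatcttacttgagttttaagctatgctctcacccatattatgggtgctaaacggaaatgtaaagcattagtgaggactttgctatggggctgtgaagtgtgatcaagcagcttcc

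The RUNX letters stood in the window of Klra1 and the first window of Klre1, though not in its second. They were found in 6 of the 18 genes with a window. Among all 32851 windows of this length 16.8% held them, a share per window, whereas some of the 18 genes have 2 windows. The TCF/LEF letters stood in the windows of Klra6 and Klra7, and in 3 of the 18 genes, against 16.0% of all windows. A match is only a run of letters in this window, and neighbouring Klra genes share ancestry, so the counts describe and test nothing.

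Members were made up mostly of cells with Klre1. A molecule of Klre1 was present in 76.8% of members, of Klra7 in 33.1% and of Klra1 in 14.5%, and 60.5% had Klre1 alone of the 3. Klra7 alone was seen in 16.4%, Klra1 alone in 3.2%, and all 3 together in 4.53%. Just inside the gate, 240 members (32.0%) had a receptor sum of exactly 1 molecule, and 510 (68.0%) had 2 or more. Cells just outside it had a sum of 0, which includes cells whose few receptor transcripts were not captured. Klra genes outside the gate were detected in 47.6% of members (exact 95% interval 44.0 to 51.2%) and in 13.7% of the other T cells (12.3 to 15.2%). Klra genes are near copies of each other, so reads of 1 gene may have been assigned to another.

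Markers of the label were present. The 3 label genes that the gate did not use stood, in CPM (counts scaled to a common total in each sum), at 1932 ± 140 for the granule protein gene Nkg7, 242 ± 61.2 for Klrk1 and 206 ± 52.3 for Klrc1 in members (SD, n = 9 sums). In other T cells the same genes stood at 960 ± 215, 67.5 ± 16.9 and 44.3 ± 16.7. The summed level of 8 T cell markers was 2544 to 3584 CPM in members and 196 to 320 in NK-like cells. The sum includes Cd3d and Cd3g, which the NK-like gate excludes, so part of this gap was set by the gate. Ncr1, the defining gene of NK cells, was seen in 22 of 750 members (2.93%, exact 95% interval 1.85 to 4.41%). Median depth was 5219 molecules a cell in members, 4808 in other T cells and 5460 in NK-like cells. No cell barcode was shared by members of different libraries, while 63 to 65 barcodes were shared between pairs of libraries over all colon cells.

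Plasma cell transcripts were detected in every class. Igha, the heavy chain of plasma cell IgA, gave a molecule in 70.9% of members, 72.7% of other T cells and 75.9% of NK-like cells. The 7 B and plasma cell markers summed to 891 to 1238 CPM in members, 955 to 1724 in other T cells and 854 to 1267 in NK-like cells. The 7 myeloid markers were Lyz2, C1qa, C1qb, Csf1r, Cd68, Adgre1 and Itgax. They summed to 132 to 2040 CPM in members and 580 to 3453 in other T cells. A molecule of 1 or more of them was held by 39.7% of members and 23.3% of other T cells. Of 6 tested against other T cells, 1 was higher in members and 1 lower. Their part in the results was not tested unless a value is given.

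In most members Cd8a, the CD8 alpha gene, was detected without Cd8b1. Cd8a was detected in 67.9% of members and 45.6% of other T cells, and in 0 of 116 NK-like cells, which allows a share of up to 2.59%. Cd8b1, the beta chain of the conventional CD8 coreceptor, was detected in 10.1% of members and 20.2% of other T cells, and Cd4 in 2.13% and 25.2%. Cd8a without Cd8b1 and Cd4 was seen in 57.6% of members (exact 95% interval 54.0 to 61.2%) and 27.7% of other T cells (25.8 to 29.6%). Over the libraries the first of these shares ran from 46.6 to 63.6% and the second from 26.7 to 28.4%, so the ranges did not overlap. No coreceptor transcript at all was detected in 30.3% of members and 29.0% of other T cells.

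Constant gene transcripts of both T cell lineages were detected. Trac, the constant gene of the alpha chain, was detected in 61.7% of members and 6.90% of NK-like cells. Trdc, the constant gene of the delta chain, was detected in 25.5% of members, 14.2% of other T cells and 6.90% of NK-like cells. Trac without Trdc was found in 344 members (45.9%), Trdc without Trac in 72 (9.60%), both in 119 (15.9%) and neither in 215 (28.7%). More members held both than Trdc alone, so these shares do not show a separate gamma-delta group. A constant gene of the gamma chain was detected in 80.7% of members, 45.8% of other T cells and 44.0% of NK-like cells, and such transcripts are also known from alpha-beta T cells. With each cell thinned to 1500 molecules, which left out 13 members, Cd8a was detected in 50.5% of members and 35.5% of other T cells, Cd8b1 in 4.75% and 13.5%, and Trdc in 12.1% and 7.26%.

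**Figure D1:**
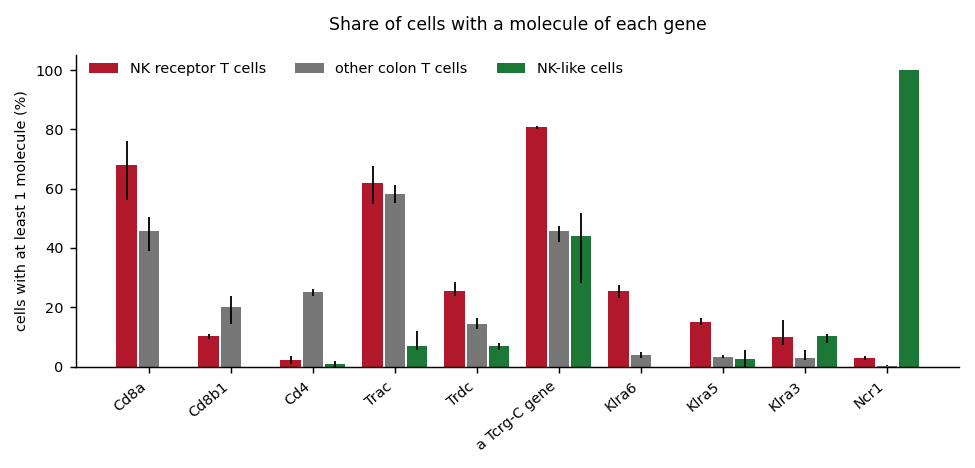
Share of cells with at least 1 molecule (vertical axis, percent) of each gene in NK receptor T cells (750 cells), other colon T cells (2248) and NK-like cells (116). Bars are all cells, black lines the range over the 3 libraries, and Ncr1 is 100% in NK-like cells by their gate. Members stand highest for Cd8a (67.9%), Trdc (25.5%) and Klra6 (25.5%), and lower than other T cells for Cd8b1 and Cd4.

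Against the other colon T cells, members had more transcript of further NK receptors, most cytotoxic granule genes and the chemokine Ccl5, and less of the genes of naive, helper and costimulated T cells. The question was which genes, beyond those of the gate, separate T cells that carry these receptors from all other colon T cells. Those other cells were a mix, with Cd4 detected in 25.2% of them and in 2.13% of members. Members were not compared with only those other T cells that had Cd8a without Cd8b1 and Cd4. How much of each difference follows from the mix was therefore not tested. Counts were summed in each genotype and library, and both classes of a sum were compared within it, over 9 pairs. Of 7874 genes tested, 1510 passed an adjusted p of 0.05 in edgeR's quasi-likelihood test (19.2%), 647 higher in members (8.22%) and 863 lower (11%). The gate genes and the 3 other label genes were given no test. Without library 2 the count was 831 and without library 1 it was 947, and with cells between the 10th and 90th percentile of members' depth it was 1033.

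Of 11 listed Ly49 genes, 5 passed the filter on low counts, and 2 of these belong to the gate. All 3 tested genes were higher in members. Klra6 stood between 38.7 and 124 CPM in the 9 sums of members (median 76.4) and between 5.05 and 23.2 in those of other T cells (median 12.1), so the classes did not overlap. Its log2 fold change was 2.56 ± 0.17 (SE, adjusted p = 1.12e-11), and it was higher in members in 9 of 9 sums. Klra5 had a log2 fold change of 1.92 ± 0.41 (adjusted p = 0.0117) and Klra3 of 1.63 ± 0.21 (adjusted p = 9.51e-07). Klra5 did not pass when library 3 was left out (adjusted p = 0.0947).

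Klr relatives outside the gate and label were higher too, 3 of 3 tested. Klrd1, the CD94 subunit, stood between 506 and 916 CPM in members and between 165 and 366 in other T cells, without overlap, with a log2 fold change of 1.35 ± 0.14 (adjusted p = 0.000161). Klrc2, which encodes NKG2C, the activating partner of CD94, had a log2 fold change of 2.41 ± 0.25 (adjusted p = 7.00e-08). Gm156, listed by RefSeq as Klrh1, had a log2 fold change of 1.51 ± 0.30 (adjusted p = 0.005).

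Among 10 tested other NK receptors, 7 were higher in members, 2 were lower and 1 did not pass. Cd160, a receptor of intraepithelial and NK cells, averaged 546 ± 73.4 CPM in members and 272 ± 56.6 in other T cells (SD, n = 9; log2 fold change 1.00 ± 0.07). Cd244a, the SLAM family receptor 2B4, averaged 161 ± 30.5 against 80.3 ± 19.9. Crtam and Klrb1a were also higher, with log2 fold changes of 1.09 ± 0.18 and 0.98 ± 0.18.

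The signalling genes split. Of 14 tested adaptors and kinases 5 were higher in members, 4 lower and 5 did not pass. Higher were Fcer1g, an ITAM adaptor also used by Fc receptors (1184 ± 159 against 651 ± 139 CPM), Hcst, the DAP10 adaptor of NKG2D (log2 fold change 0.77 ± 0.06), and Lat2, a relative of LAT (1.07 ± 0.13). Lower were Lat, the scaffold of T cell receptor signalling, and Cd247, its zeta chain. Lat ranged from 198 to 361 CPM in members and from 475 to 566 in other T cells, without overlap (log2 fold change -1.05 ± 0.08, adjusted p = 3.28e-09). Cd247 had a log2 fold change of -0.73 ± 0.07. Tyrobp, the DAP12 adaptor of activating Ly49 receptors, averaged 581 ± 168 against 386 ± 113 and did not pass (adjusted p = 0.13).

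Granule genes were mostly higher, 9 of 12 tested, with 2 lower and 1 not passing. Gzma, the gene of granzyme A, ranged from 4426 to 12815 CPM in members and from 2436 to 6565 in other T cells. Those ranges overlapped, and within sums Gzma was higher in members in 8 of 9 (log2 fold change 1.03 ± 0.24, adjusted p = 0.0167). Gzmb, the gene of granzyme B, had a log2 fold change of 0.97 ± 0.17, the perforin gene Prf1 0.92 ± 0.15, the Fas ligand gene Fasl 0.77 ± 0.09, and Ctsw, a cathepsin of cytotoxic cells, 1.03 ± 0.10. Gzma had an adjusted p of 0.208 without library 1 and 0.216 without library 2, and Gzmb of 0.0643 and 0.0824.

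Of 13 tested cytokine and chemokine genes, 4 were higher and 4 lower. Ccl5, a chemokine stored by cytotoxic T cells, ranged from 13081 to 24204 CPM in members and from 5533 to 12903 in other T cells, without overlap (log2 fold change 1.16 ± 0.14, adjusted p = 0.000605). Xcl1, which attracts cross-presenting dendritic cells, had a log2 fold change of 1.56 ± 0.25, Ccl3 of 1.43 ± 0.37 and Ccl4 of 1.29 ± 0.29. Whichever library was left out, Ccl3 (adjusted p 0.0786 to 0.166) and Ccl4 (0.0543 to 0.131) no longer passed, and Xcl1 did not pass when library 1 was left out (0.0658). The genes of type 17 cytokines were lower. Il22 averaged 2.87 ± 6.45 CPM against 86.1 ± 89.1 (log2 fold change -4.93 ± 0.30), and Il17a had a log2 fold change of -4.15 ± 0.56. All 102 Il17a molecules of the members came from 6 cells, and 3 of these cells were in KO library 2. Ifng, the interferon gamma gene, averaged 127 ± 48.0 against 107 ± 45.8 and did not pass (adjusted p = 0.555).

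**Figure D2:**
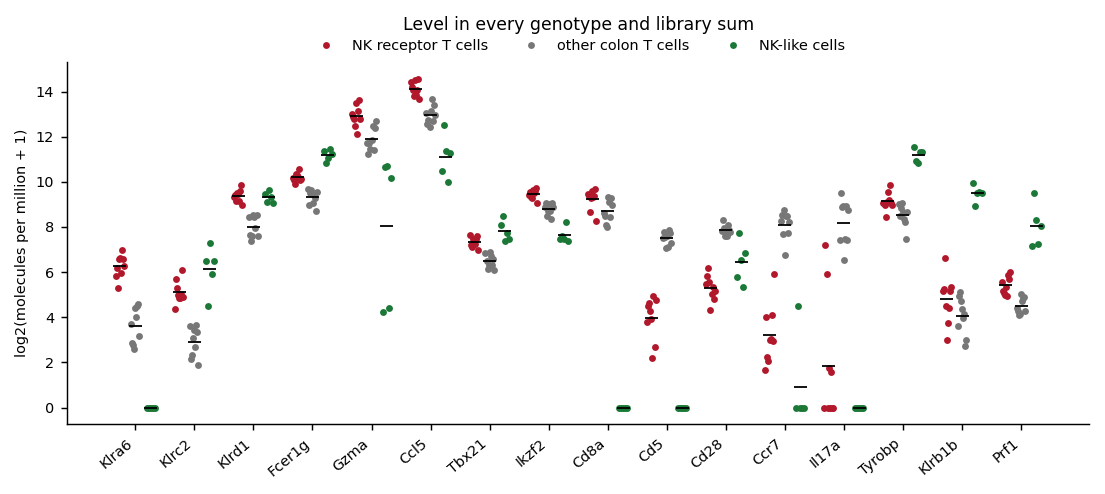
Level of 16 genes (vertical axis, log2 of CPM plus 1) in every genotype and library sum of NK receptor T cells (9 sums), other colon T cells (9 sums) and NK-like cells (5 sums). Points are sums and black lines the means of the plotted values. Klra6, Klrc2, Klrd1, Fcer1g and Ccl5 are higher, and Cd5, Cd28 and Ccr7 lower, in every sum of NK receptor T cells than in its partner of other T cells.

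Genes of naive and recirculating T cells were all lower, 8 of 8 tested. Ccr7, the lymph node homing receptor, averaged 13.3 ± 17.8 CPM in members and 294 ± 100.1 in other T cells (log2 fold change -4.48 ± 0.36). Lef1, a transcription factor of naive and early T cells, had a log2 fold change of -1.81 ± 0.20, Klf2, which drives tissue exit, -1.41 ± 0.22, and its target S1pr1, the egress receptor, -1.52 ± 0.28. Their median log2 fold change was -1.46, against 0.01 over all genes tested. Klf2 did not pass when library 1 was left out (adjusted p = 0.0689).

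Of 21 tested T cell receptor, coreceptor and costimulation genes, 10 were lower in members, 6 higher and 5 did not pass. Cd5, which dampens T cell receptor signals and marks conventional T cells, ranged from 3.54 to 30.0 CPM in members and from 131 to 232 in other T cells, without overlap (log2 fold change -3.48 ± 0.19, adjusted p = 9.46e-09). Its relative Cd6 had a log2 fold change of -3.11 ± 0.20, the costimulatory receptor Cd28 -2.55 ± 0.12, Icos -2.96 ± 0.26, Cd4 -3.74 ± 0.34 and Cd8b1 -1.65 ± 0.23. Cd8a averaged 622 ± 164 against 436 ± 145 and did not pass (adjusted p = 0.0936). Of 7 tested inhibitory receptors 5 were lower, among them Btla (log2 fold change -3.45 ± 0.30), the PD-1 gene Pdcd1 (-2.74 ± 0.45) and Ctla4 (-1.71 ± 0.11).

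Trdc (log2 fold change 0.82 ± 0.18) and the gamma constant genes Tcrg-C2 (0.87 ± 0.10), Tcrg-C4 (0.81 ± 0.08) and Tcrg-C1 (0.66 ± 0.10) were higher in members, though Trdc did not pass when library 1 was left out (adjusted p = 0.16). Transcription factors that were higher, 6 of 18 tested, included Tbx21, the T-bet gene of cytotoxic lineages (162 ± 25.6 against 90.5 ± 19.2 CPM), Ikzf2, the Helios gene (log2 fold change 0.66 ± 0.07), Eomes (1.31 ± 0.25) and Zfp683, the Hobit gene of tissue-resident cells (1.55 ± 0.30). Bcl11b, a factor of T cell commitment, was lower (-0.72 ± 0.09). Of 16 tested residency and homing genes 5 were higher and 4 lower. Itga1, the collagen-binding integrin chain of resident T cells, ranged from 232 to 410 CPM against 91.5 to 205 (log2 fold change 1.1 ± 0.10), and Rgs1 had a log2 fold change of 0.89 ± 0.07. Ccr2, a receptor for monocyte chemokines, was lower (-2.02 ± 0.21). Itgae, the CD103 chain that binds epithelial cadherin, averaged 368 ± 134 against 257 ± 78.5 and did not pass (adjusted p = 0.117).

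Cytokine receptors were mixed, with 2 of 13 tested higher and 4 lower. Il2rb, the chain shared by the IL-2 and IL-15 receptors, had a log2 fold change of 0.64 ± 0.07, and Il7r, the IL-7 receptor of naive and memory T cells, of -1.22 ± 0.16. None of 8 tested proliferation genes passed, and Mki67 was detected in 11.6% of members and 12.7% of other T cells. Among 15 tested genes of sialic acid metabolism, the pathway of the deleted gene, St8sia1 (log2 fold change -3.31 ± 0.30), St6gal1 (-2.22 ± 0.24) and St3gal1 were lower, and St3gal6 (0.59 ± 0.12) and St8sia4 (0.30 ± 0.07) higher. St8sia4 did not pass when library 1 or 2 was left out (adjusted p = 0.0514 each).

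The called genes with the largest fold changes and at least 50 CPM in the higher class held further names. Higher in members in 9 of 9 sums were Spry2, an inhibitor of receptor kinase signalling (84.8 ± 13.7 against 22.8 ± 7.75 CPM), the integrin gene Itgad (log2 fold change 1.77 ± 0.20), and the activating CD200 receptor genes Cd200r2 (1.71 ± 0.21) and Cd200r4 (1.31 ± 0.15). Lower in 9 of 9 were Izumo1r, the folate receptor 4 gene of regulatory T cells (-4.28 ± 0.27), Ramp3 (-3.78 ± 0.27), the OX40 gene Tnfrsf4 (-3.63 ± 0.48), Il1r2 (-3.62 ± 0.40), the RANK ligand gene Tnfsf11 (-3.53 ± 0.52) and the transcription factor Maf (-3.50 ± 0.24).

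**Figure D3:**
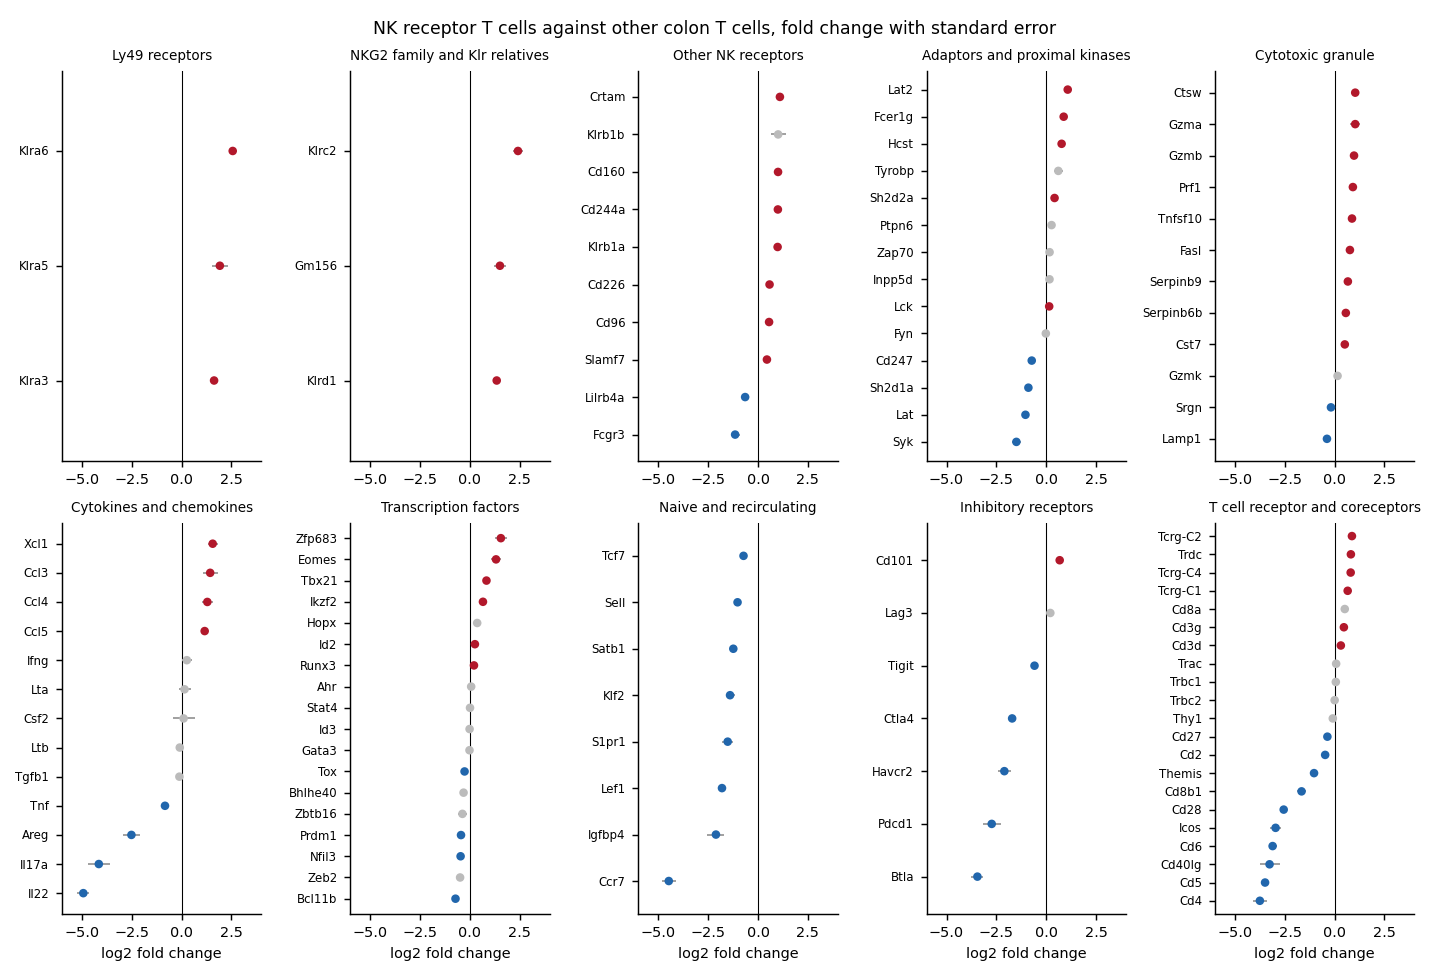
Log2 fold change of NK receptor T cells against other colon T cells (horizontal axis, with SE) for every tested gene of 10 lists. Red points are higher and blue points lower at an adjusted p under 0.05 in edgeR, and grey points did not pass. All tested Ly49 and NKG2 family genes lie above 0 and all 8 naive genes below it.

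Against NK-like cells, members had more transcript of some T cell genes and less of several NK receptor genes. Adaptors and kinases went both ways. This comparison asked how far the members stand from NK cells of the same preparation, and used the 5 sums with at least 10 NK-like cells (3 KO and 2 WT). Of 4971 genes tested, 390 passed (7.85%), 118 higher in members (2.37%) and 272 lower (5.47%). The NK-like gate can also hold other innate lymphoid cells with Ncr1, and 6 markers of such cells summed to 351 to 3970 CPM there and 86.9 to 163 in members. Without library 3 the count was 174.

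Cd8a had no molecule in NK-like cells and was at least 86.8-fold higher in members, against a floor of 3 molecules over all NK-like cells of these sums. Klra6, at 0 as well, was at least 11.6-fold higher, and the T cell signalling gene Themis at least 11.9-fold. Trac had a log2 fold change of 3.84 ± 0.40, Bcl11b of 2.25 ± 0.44, Lat of 1.77 ± 0.29 and Ikzf2 of 1.73 ± 0.16. Among receptor segments, Trgv2 was at least 69.1-fold and Trbv16 at least 32.9-fold higher in members. Of 14 tested T cell receptor and coreceptor genes, 7 were higher in members, 1 was lower and 6 did not pass. The beta chain constant gene Trbc1 was detected in 34.7% of members and 46.6% of NK-like cells, and Trbc2 in 58.1% and 33.6%. Bcl11b did not pass when library 3 was left out (adjusted p = 0.0838).

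Klrd1 averaged 634 ± 103 CPM in members and 645 ± 108 in NK-like cells (SD, n = 5), and Cd160 547 ± 71.6 and 564 ± 261. Neither passed (adjusted p = 0.952 and 0.99), which does not show that they are equal. Of 13 tested adaptors and kinases 5 were higher in members, 2 lower and 6 did not pass, and of 12 other NK receptors 0 were higher and 5 lower. Lower in members in 5 of 5 sums were the adaptor genes Tyrobp (log2 fold change -2.13 ± 0.13) and Fcer1g (-1.02 ± 0.11), the NKR-P1 family genes Klrb1b (-4.04 ± 0.24) and Klrb1c (-3.37 ± 0.30), and Klri2, a partner of Klre1 (-3.93 ± 0.39). Fcer1g was thus lower in members than in NK-like cells and higher than in other T cells.

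Several effector genes differed. Prf1 averaged 47.0 ± 13.5 CPM in members and 319 ± 239 in NK-like cells (log2 fold change -2.59 ± 0.42), and Xcl1 419 ± 104 and 1685 ± 636 (-1.96 ± 0.17). Ifng was lower in members (-1.103 ± 0.23), as were Serpinb9, the granzyme B inhibitor (-3.04 ± 0.20), Csf2 (-3.30 ± 0.36) and the cytokine receptor genes Il2ra (-4.00 ± 0.35) and Il18r1 (-2.19 ± 0.28). Ccl5 was higher in members, at 17636 ± 3163 against 2669 ± 1886 CPM (log2 fold change 2.92 ± 0.49, adjusted p = 0.0429). Gzma averaged 7779 ± 882 against 896 ± 823, was higher in members in 5 of 5 sums and did not pass (adjusted p = 0.195). Mki67 was higher in members (log2 fold change 2.44 ± 0.52), and was detected in 7 of 116 NK-like cells (6.03%). With library 3 left out, Ccl5 (adjusted p = 0.411), Ifng (0.151) and Mki67 (0.238) did not pass.

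Within the members, the receptor carried went along with other genes. These subsets were set from the same cells after their values were known and get no test. The 454 cells with Klre1 alone had a Gzma level of 10785, 12803 and 8326 CPM in libraries 1, 2 and 3, and the 248 cells with Klra7 had 4497, 6659 and 3767. Lef1 stood at 9.35, 27.6 and 24.2 in the first and at 95.2, 59.6 and 136 in the second. Gzma was higher, and Lef1 lower, in the Klre1 cells in all 3 libraries, and the ranges of the subsets did not overlap. Trdc averaged 141 ± 30.5 CPM in cells with Klre1 alone and 41.6 ± 14.8 in cells with Klra7 (SD, n = 3 libraries), Ccl5 22839 ± 3556 and 12068 ± 1775, and Xcl1 341 ± 26.8 and 566 ± 71.1.

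Coreceptor use also divided the members. The 440 cells with Cd8a and no Cd8b1 had Cd28 at 20.1, 17.7 and 13.5 CPM in libraries 1, 2 and 3, and the 76 cells with Cd8b1 had 181, 47.2 and 85.8. Cd5 averaged 12.0 ± 3.77 and 49.6 ± 20.0, Lef1 35.3 ± 10.6 and 78.3 ± 6.80, and Ikzf2 769 ± 83.6 and 465 ± 82.8. The 72 cells with Trdc and no Trac had Prf1 at 74.5 ± 3.16 and Klrc1 at 417 ± 121 CPM, against 33.5 ± 4.49 and 182 ± 68.5 in the 344 cells with Trac and no Trdc. Prf1 was higher in the Trdc cells in each of the 3 libraries. No Cd5 molecule was found in the 72 Trdc cells. Cd5 was detected in only 4.67% of all members, so this 0 does not set the Trdc cells apart.

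St8sia6 itself was nearly absent from the members, with 1 molecule in all 750 cells, in a KO sum. Among all colon cells the KO libraries averaged 8.43 ± 1.32 CPM, the het libraries 12.6 ± 1.80 and the WT libraries 15.0 ± 3.49 (SD, n = 3). The 5' counts include St8sia6 molecules in KO cells, and whether the deletion spares the counted part of the gene is not given in the sources used here. The labels can therefore not be checked by this gene within the members.

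The share of colon T cells that met the gate showed no difference between genotypes that passed the test. It was 30.2, 22.3 and 24.1% in KO libraries 1, 2 and 3, 31.3, 33.6 and 25.5% in het, and 27.9, 23.2 and 17.0% in WT. Het lay above WT in 3 of 3 libraries, by 7.43 points on average (two-sided exact permutation p = 0.2, adjusted 0.3), KO lay above WT in 2 of 3 by 2.79 points (p = 0.5, adjusted 0.5), and KO lay below het in 3 of 3 by 4.64 points (p = 0.2, adjusted 0.3). The test did not pair the genotypes by library, and with 3 libraries against 3 its smallest possible p is 0.1. Fewer cells of a type and fewer receptor molecules captured per cell both lower this share. When a cell's own hashtags set its genotype (at least 80% of its hashtag molecules and at least 10), KO lay above het by 3.19 points, so the order of these groups turned, het lay above WT by 2.34 points in 2 of 3 libraries, and KO lay above WT by 5.53. With a receptor sum of at least 2, KO lay above het in 2 of 3 libraries, although its mean was 3.59 points lower, and het above WT in 2 of 3. The hashtag rule kept 47.0% of members in KO library 1 and 78.9 to 100% in the other sums.

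The same gate held 97 of 1429 T cells of the small bowel lamina propria (6.79%) and 1079 of 8969 of its epithelium (12.0%). In the epithelium the share averaged 15.5 ± 8.15% in KO, 14.3 ± 4.6% in het and 5.73 ± 2.38% in WT (SD, n = 3 libraries).

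**Figure D4:**
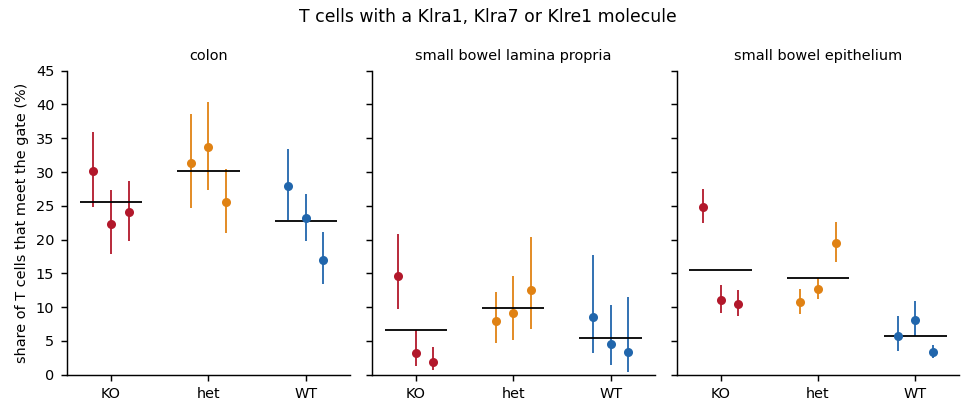
Share of T cells that met the gate (vertical axis, percent) by genotype in the colon and in the lamina propria and epithelium of the small bowel. Points are libraries 1 to 3 from left to right with exact 95% intervals, which cover counting error only, and black lines are means. Colon shares of the genotypes overlap, from 17.0 to 33.6%.

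Few genes of the members passed the test between genotypes. The question was which genes of these cells change with St8sia6. All genotypes were fitted together with the library as a block, so the 3 contrasts share samples. KO against WT gave 3 called genes of 7035 tested (0.0426%), 2 higher (0.0284%) and 1 lower (0.0142%). Het against WT gave 7 (0.0995%), 5 higher (0.0711%) and 2 lower (0.0284%), and KO against het 6 (0.0853%), 2 higher (0.0284%) and 4 lower (0.0569%). At an unadjusted p under 0.05 there were 345, 375 and 344 genes. With no true difference, a fraction of about 0.05 of the 7035 tested genes would fall there, so these counts are no sign of a genotype effect.

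Levels of the gate genes within the members were as follows. Klre1 had 330, 242 and 239 CPM in KO libraries 1, 2 and 3, 211, 321 and 280 in het, and 333, 404 and 183 in WT. Klra7 had 213, 264 and 223 in KO, 280, 202 and 214 in het, and 188, 183 and 314 in WT. Klra1 had 139, 98.0 and 99.4 in KO, 65.3, 39.9 and 76.1 in het, and 76.1, 28.5 and 61.1 in WT. The genotypes overlapped for Klre1 and Klra7, while for Klra1 every KO value lay above every het and WT value. These genes chose the cells and were not tested, and how many other genes separate in this way was not counted.

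None of 6 tested NKG2 family genes, 4 tested Ly49 genes, 14 granule genes, 9 cytokine and chemokine genes or 11 sialic acid genes passed in KO against WT. Klrk1, the NKG2D gene, had 243, 349 and 318 CPM in KO libraries 1, 2 and 3, 267, 206 and 214 in het, and 150, 224 and 205 in WT. KO exceeded WT in 3 of 3 libraries without overlap, and the log2 difference of 0.65 ± 0.16 did not pass (adjusted p = 0.178). Ifng showed the same order, with 117, 177 and 214 in KO and 94.1, 95.03 and 76.4 in WT (log2 difference 0.90 ± 0.22, adjusted p = 0.282). Klra6 lay lower in KO in 3 of 3 libraries, at 56.5, 71.9 and 38.7 against 124, 95.03 and 76.4 (log2 difference -0.80 ± 0.21, adjusted p = 0.282). How many of all 7035 tested genes separate KO from WT libraries in this way was not counted.

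Gadd45g, a stress-induced activator of p38 kinase signalling, was higher in KO than in WT. It had 150, 95.9 and 93.9 CPM in KO libraries 1, 2 and 3, 56.0, 37.5 and 65.5 in het, and 60.1, 24.4 and 43.7 in WT. Every KO value lay above every WT value (log2 fold change 1.44 ± 0.23, adjusted p = 0.00433). Its 303 molecules came from 104 members, and the 5 cells with most held 38.0% of them. Cxcl10, an interferon-induced chemokine that binds CXCR3, had 43.4, 37.0 and 40.5 in KO, 37.3, 82.1 and 53.1 in het, and 6.01, 6.79 and 15.3 in WT. It was higher than in WT in KO (2.18 ± 0.40, adjusted p = 0.0136) and in het (2.69 ± 0.38, adjusted p = 0.000203). Its 151 molecules came from 51 members, with 41.7% in 5 cells.

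Selenop, a selenium transport protein that tissue macrophages make in quantity, was lower in KO than in WT, with 45.6, 13.1 and 29.5 CPM against 86.1, 33.9 and 133 (log2 fold change -1.52 ± 0.27, adjusted p = 0.0125). The groups overlapped, and the difference had the same sign in 3 of 3 libraries. Rhob, a small GTPase gene, and Camk2b, a calcium-dependent kinase gene, had the next smallest p and did not pass (log2 differences 0.97 ± 0.20 and 1.11 ± 0.23, adjusted p = 0.0506 and 0.0611). All 3 called genes still passed when library 1 was left out, where 27 genes passed in all. None of the 3 passed when library 2 was left out, and 1 did when library 3 was. The count of called genes was 0 without the 298 of 750 members (39.7%) that held a molecule of the 7 myeloid markers. It was also 0 without the 5% of T cells with most molecules. Leaving out the marker-holding members also cut the genes tested from 7035 to 5421. Whether the calls were lost through the kind of cells removed or through fewer cells was not tested.

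Besides Cxcl10, 4 genes were higher in het than in WT. None of 6 tested genes of the myeloid marker list passed in that contrast. Lgmn, a lysosomal protease, had 93.3, 37.5 and 122 CPM in het libraries 1, 2 and 3 and 16.0, 4.07 and 15.3 in WT (log2 fold change 2.86 ± 0.38). Ctss, the protease of antigen presentation, averaged 202 ± 87.6 against 90.7 ± 39.3 (1.20 ± 0.19), Psap, a lysosomal lipid-degradation cofactor, 494 ± 174 against 289 ± 52.8 (0.78 ± 0.15), and Cxcl16, a chemokine of myeloid cells, 43.4 ± 36.3 against 11.8 ± 11.4 (1.89 ± 0.40). Psap, Ctss and Aif1, a macrophage gene, were lower in KO than in het (-0.90 ± 0.15, -1.04 ± 0.20 and -2.19 ± 0.46). All 7 myeloid markers were detected in members. Their sum was higher in het than in WT in 2 of 3 libraries and higher in het than in KO in 3 of 3, at 460, 1020 and 2040 CPM in het libraries 1, 2 and 3, 282, 155 and 486 in KO, and 1060, 132 and 738 in WT. The 199 Lgmn molecules came from 24 members, with 60.8% in 5 cells. Without members that held a myeloid marker molecule Psap had a log2 difference of -0.11 in het against WT and 0.04 in KO against het, and the counts fell to 3 and 1.

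Trbv13-3, a variable segment of the T cell receptor beta chain, separated het from the other genotypes. It had 1 molecule in all het members, 78 in KO and 104 in WT, from 33 members in all. WT libraries 1, 2 and 3 had 3, 16 and 3 such members, and over all members 5 cells held 40.4% of the molecules. The ratio of KO to het was 70.0 (exact 95% interval 12.2 to 2801, counting error only) and that of WT to het 80.6 (14.2 to 3215), and both contrasts were called (adjusted p = 1.38e-05 and 8.04e-06). These intervals treat molecules as independent, also those of 1 cell, so they may be too narrow. In other T cells of het Trbv13-3 had 60.6, 15.7 and 70.2 CPM. Lef1 was lower in het than in WT, at 21.8, 25.8 and 40.7 against 64.1, 46.2 and 113 CPM (-1.30 ± 0.27, adjusted p = 0.0377). Klrb1b, an inhibitory NKR-P1 receptor gene, was higher in KO than in het, at 34.7, 37.0 and 97.6 against 21.8, 7.04 and 12.4 (2.14 ± 0.40, adjusted p = 0.0213), with no overlap. Igkv3-2, an antibody light chain segment, was lower in KO than in het (-1.21 ± 0.25).

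Few of these calls held in every subset of libraries. Of the 7 genes called in het against WT, 5 passed without library 1, 1 without library 2 and 2 without library 3. Of the 6 called in KO against het, 6 passed without library 1, 0 without library 2 and 1 without library 3.

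**Figure D5:**
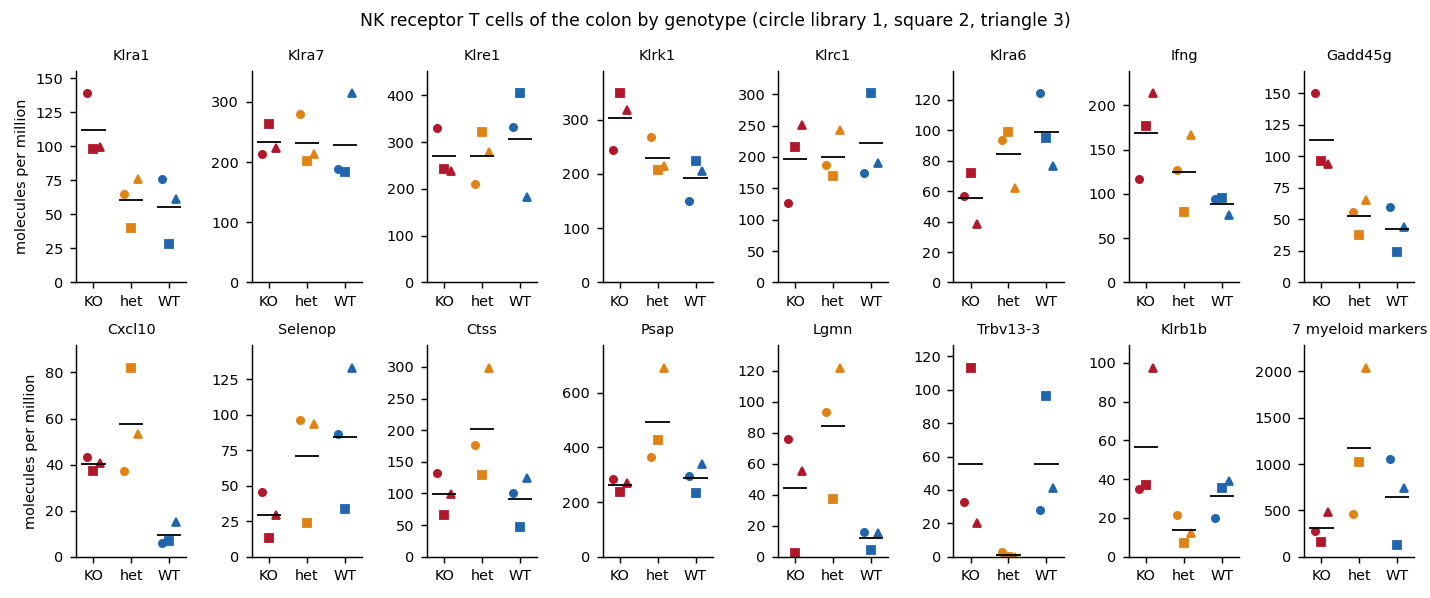
Level (vertical axis, CPM) of 15 genes and of the sum of 7 myeloid markers in the NK receptor T cells of each genotype. Symbols are libraries 1 to 3 and black lines the means of 3 libraries. Gadd45g is higher in each KO library (93.9 to 150) than in any WT library (24.4 to 60.1), and the sum of myeloid markers is highest in het library 3 (2040).

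The difference between KO and WT was itself compared between members and other T cells. Of 7877 genes tested 2 passed (0.0254%), both with a lower KO effect in members (0.0254%). At an unadjusted p under 0.05 stood 331 genes, where a fraction of about 0.05 would fall with no true difference. Pltp, the phospholipid transfer protein gene, averaged 52.7 ± 11.9 CPM in KO and 73.9 ± 27.6 in WT members, and 93.7 ± 23.03 and 41.4 ± 8.25 in other T cells (SD, n = 3; difference of log2 fold changes -1.63 ± 0.26, adjusted p = 0.00687). Ccl3, a chemokine gene of activated killer cells, averaged 175 ± 25.5 and 298 ± 76.6 in members, and 88.2 ± 28.1 and 47.2 ± 11.8 in other T cells (-1.62 ± 0.26, adjusted p = 0.0255). In WT library 3, 9 members held all Ccl3 molecules, and over all members 5 cells held 30.4% of them. Neither gene passed without library 1, and Pltp did not pass without library 3 (adjusted p = 0.144).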

How the data were processed

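The deposited matrices hold counts of unique molecules per gene and cell (5' droplet capture) and per hashtag and cell, made by the authors with Cell Ranger and Seurat on mm10, per the submitters' processing notes, which give no versions. Columns of other content are gene names and barcodes, as deposited. Barcode endings could not be tied to sample names, so library numbers are names only. Whether replicates differ by more than technical spread rests on the 3 independent preparations the labels describe.

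Cells were gated on raw counts, and counts were summed per genotype and library in each class. Levels are CPM of a sum, computed here from the deposited counts. Sums of members held 321512 to 736643 molecules, and sums under 10 cells were left out. edgeR 4.0.16 in R 4.3.3 (TMM, filterByExpr, robust quasi-likelihood F test, Benjamini-Hochberg adjusted p under 0.05) was run over all genes that passed the filter. Genotypes were fitted with the library as block, and classes with the genotype and library sum as block. The pairing follows from pooling before capture: deviations of same-library sums correlated at 0.12 to 0.3 in all 9 pairs, and those of different libraries at -0.33 to 0.12 in 18. DESeq2 1.42.0 was an alternative. The fits were also run on simulated sums, which had the same spread for every gene and no library differences. That run therefore does not show how the fits behave on these data. Shares were compared by exact permutation, two-sided and without pairing by library. Intervals are exact binomial (95%) and cover counting error only. No doublet caller was run. RefSeq tables gave positions and promoters (GRCm38.p6).

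Named genes are those of the fixed pathway and marker lists, and up to 10 called genes a direction with the largest fold change, at least 50 CPM in the higher group and the same direction in every sum or library. Where fewer than 5 genes were called between genotypes, the 5 with the smallest p were named. The members and lists were chosen with earlier results of these data known. Subsets of members, Il17a cell counts, Trbv13-3, Lgmn and other genes outside these limits were named after their values were seen.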

Additional observations from a re-analysis of the deposited data

Results flagged for a closer look

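The difference between KO and WT differed between members and other colon T cells for 2 genes, by a test of that difference. Whether the effects have opposite signs was not tested. For Pltp the difference of log2 fold changes was -1.63, with KO lower than WT in 3 of 3 libraries in members, by a log2 value of only -0.02 in library 2, and higher in 3 of 3 in other T cells. For Ccl3 it was -1.62, with the same directions in 3 of 3 libraries each. Both calls were lost without library 1, that of Pltp also without library 3 (adjusted p = 0.144), and the 5 members with most Ccl3 held 30.4% of its molecules.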

How the results depend on the processing

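Counts of called genes between genotypes depended on most settings, and a count can hold other genes than those of the reported fit. By DESeq2, 0 of the 3 genes called in KO against WT stayed called. In het against WT 3 of 7 did so, and in KO against het 1 of 6. KO against WT (3 in the reported fit) gave 1 by DESeq2, 57 with no filter on low counts, 0 without the top 5% of T cells by molecules, 0 without cells holding a myeloid marker molecule (298 of 750 members and 523 of 2248 other T cells), 11 with genotype from each cell's own hashtags, and 3 to 27 with 1 library left out. Het against WT (7) gave 4, 48, 2, 3, 4 and 4 to 22 under these settings in turn, and 19 with a receptor sum of at least 2. KO against het (6) gave 2, 45, 1 and 1 by DESeq2, with no filter, without the top cells and without marker-holding cells, and 0 to 34 with 1 library left out. The KO effect compared between classes (2) gave 0 by DESeq2, 27 with no filter, 1 with a receptor sum of at least 2, 0 without the top cells, 1 without marker-holding cells, 4 with per-cell hashtags, and 2 to 4 with 1 library left out. With no replicate block, that is, without the pairing by library, these 4 counts were 0, 1, 0 and 0. Neither Pltp nor Ccl3 stayed called with a receptor sum of at least 2, without marker-holding cells or without library 1. Members against other T cells (1510) gave 914 by DESeq2, 830 without marker-holding cells, 650 in WT sums only and 831 to 1342 with 1 library left out. Members against NK-like cells (390) gave 695 with no filter, 181 without marker-holding cells, 241 within the depth window and 174 to 373 with 1 library left out. Of 67 named genes called against other T cells, 67 stayed called with no replicate block, and 58 of 66, 61 of 66 and 63 of 66 without library 1, 2 and 3. WT sums only kept 57 of 67, and leaving out marker-holding cells kept 54 of 59.

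The KO minus het share turned to 3.19 points with per-cell hashtags, where het minus WT was 2.34 and KO minus WT 5.53. Share differences with 1 library left out ran from 0.674 to 4.63 points (KO minus WT), 5.92 to 9.46 (het minus WT) and -6.39 to -1.29 (KO minus het). Without the top 5% of T cells, Ctss had log2 differences of -0.10 in het against WT and 0.29 in KO against het, and Psap -0.16 and 0.036. Without marker-holding cells Psap had -0.11 and 0.0402. The cause was not tested. Thinned to 1500 molecules, members had Cd8a in 50.5%, Cd8b1 in 4.75%, Trac in 28.8%, Trbc1 in 13.7%, Trbc2 in 25.2%, Trdc in 12.1%, Tcrg-C1 in 15.5%, Tcrg-C2 in 20.6% and Tcrg-C4 in 23.6%. The myeloid, thinning and T cell top 5% settings were added after seeing the data. Leaving out the top 5% of all colon cells removed no member. With 57 to 137 cells a sum, genes at few molecules were not resolved.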
